A study of Mus musculus with 12 samples.

Results

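The alpha-arrestins of the mouse liver, *Arrdc1*, *Arrdc2*, *Arrdc3* and *Arrdc4*, and their relative *Txnip* were followed through zinc and glucocorticoid treatment. These 5 genes were chosen by name as one protein family, out of 54838 genes in the count table, of which 26191 had at least 1 count. All 5 were measured in every mouse. Livers came from adult female C57BL/6J mice, which carried no engineered allele, in 4 groups of 3. Drinking water was left plain or held 25 mM ZnSO4 for 7 days. Each mouse was then injected, with PBS alone or with dexamethasone (Dex, 200 µg in PBS), a synthetic hormone that activates the glucocorticoid receptor (GR), and its liver was sampled 2 h later. The groups are called water-PBS, which is the control, zinc-PBS, water-Dex and zinc-Dex. Single-end libraries held 9091152 to 12303527 counts each.

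Alpha-arrestins share the arrestin fold with the beta-arrestins that switch off G protein-coupled receptors. Most carry short PPxY motifs that bind ubiquitin ligases of the NEDD4 family, and in this way they act as adaptors that bring receptors and transporters of the plasma membrane to the ligase and into endosomes. ARRDC1 is best known for recruiting the ESCRT machinery to the plasma membrane, where it buds small vesicles. Liver ARRDC3 has been tied to insulin receptor signalling and glucose output. TXNIP binds thioredoxin and promotes the internalization of the glucose transporter GLUT1. *Txnip* and *Arrdc4* are classical targets of MondoA and ChREBP, transcription factors that sense glucose metabolites and bind E-box pairs together with their partner MLX.

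Dex moved the family in opposite directions within 2 h. *Arrdc2* rose 5.05-fold in mice on plain water and 3.73-fold in mice on zinc. *Arrdc3* fell to a level 9.18-fold and 14.4-fold lower, and *Arrdc4* to one 4.01-fold and 3.04-fold lower. *Txnip* was called higher after Dex only in the comparison among zinc-drinking mice, at 1.82-fold, and the test of the difference between the waters did not pass. *Arrdc1* was not called in any comparison, and zinc by itself gave no call for any of the 5 genes.

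The stretches upstream of the genes that moved are shown first, so that the letter patterns searched for in them can be seen. All 5 genes matched the RefSeq promoter table, which uses GRCm38.p6. Each sequence is the 250 bases before the RefSeq start, 5′ to 3′ on the strand of the gene, with motif matches in capitals. *Txnip* lies at chr3:96557707-96557956 on the plus strand, *Arrdc4* at chr7:68749239-68749488 on the minus strand, *Arrdc2* at chr8:70839721-70839970 on the minus strand and the first of 3 *Arrdc3* windows at chr13:80883134-80883383 on the plus strand.
Txnip: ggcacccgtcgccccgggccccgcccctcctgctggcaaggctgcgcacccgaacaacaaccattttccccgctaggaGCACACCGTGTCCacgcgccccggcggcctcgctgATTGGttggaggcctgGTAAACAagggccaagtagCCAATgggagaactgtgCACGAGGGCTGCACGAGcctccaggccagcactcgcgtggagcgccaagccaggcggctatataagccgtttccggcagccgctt
Arrdc4: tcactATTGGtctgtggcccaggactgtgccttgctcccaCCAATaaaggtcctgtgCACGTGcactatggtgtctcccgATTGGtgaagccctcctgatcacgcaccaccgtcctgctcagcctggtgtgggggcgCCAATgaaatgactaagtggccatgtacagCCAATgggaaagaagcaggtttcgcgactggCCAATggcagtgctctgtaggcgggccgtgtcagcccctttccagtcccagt
Arrdc2: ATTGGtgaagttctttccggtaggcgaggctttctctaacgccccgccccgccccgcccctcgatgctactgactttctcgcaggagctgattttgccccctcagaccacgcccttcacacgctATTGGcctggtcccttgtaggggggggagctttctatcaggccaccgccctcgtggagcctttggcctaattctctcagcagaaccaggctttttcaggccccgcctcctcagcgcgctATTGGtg
Arrdc3: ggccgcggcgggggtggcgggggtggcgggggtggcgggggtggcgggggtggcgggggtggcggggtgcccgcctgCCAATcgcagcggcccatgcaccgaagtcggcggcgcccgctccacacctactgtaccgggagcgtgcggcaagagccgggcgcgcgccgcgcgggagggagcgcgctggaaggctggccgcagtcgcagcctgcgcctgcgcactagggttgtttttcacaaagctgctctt

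Searches covered both strands, and positions are counted back from the start. An E-box was searched as CACGTG and occurred in 6.02% of 32851 windows of the same length. Its only match in the family was in *Arrdc4*, from -193 to -188. A looser pair of E-box-like parts, CACGNG and CNCGNG with 5 bases between them, occurred in 0.28% of windows and in *Txnip* from -85 to -69. The forkhead pattern GTAAACA, found in 3.17% of windows, matched *Txnip* from -121 to -115. The palindromic GR element, GNACA and TGTNC with 3 bases between them and found in 0.387% of windows, matched *Txnip* from -172 to -160. Among these windows the only match to a GR element was the one in *Txnip*. Any link between the matches and the Dex effects was not tested.

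The letters CCAAT, the core bound by NF-Y, were the most frequent match. They occurred in 33.8% of all windows. *Arrdc4* held 6 of them, a number reached by 19 windows, or 0.0578%. *Arrdc2* held 3, as 2.79% of windows did or exceeded, and *Txnip* held 2. *Arrdc3* held 1 in each of its first and second windows, which overlap, and none in the third, and *Arrdc1* held none of the motifs. The cyclic AMP element TGACGTCA, found in 1.55% of windows, was in no member. No 2 of the matches shown overlapped. The *Arrdc3* window was 76.0% G and C, against a median of 52.4% over all windows. A match is a description of letters and not a bound site, and the absence of one says nothing about binding elsewhere.

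**Figure D1:**
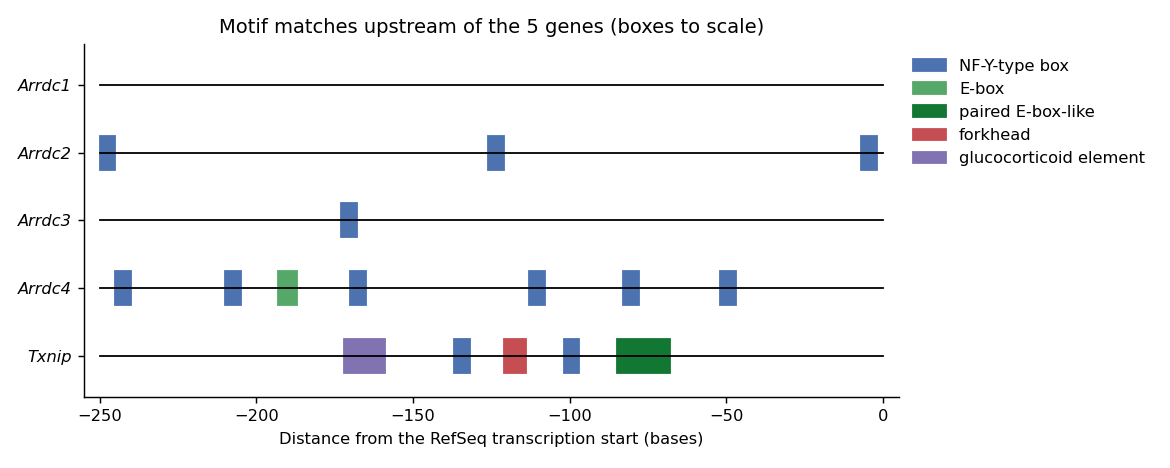
Motif matches in the 250 bases upstream of each gene, drawn to scale, with distance from the RefSeq start in bases on the horizontal axis and 1 line per gene (first window). *Arrdc4* carries 6 boxes of the NF-Y type and 1 E-box, *Txnip* carries matches of 4 kinds, and *Arrdc1* carries none.

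*Arrdc3* (ENSMUSG00000074794) lies on chromosome 13 from 80883384 to 80896042 on the plus strand of GRCm38. The normalized read counts, which are raw counts divided by a size factor per library, were 2609, 1819 and 1636 in the water-PBS mice. In zinc-PBS they were 2264, 2862 and 3871. After Dex they were 207, 204 and 249 on plain water and 218, 227 and 181 on zinc. Every Dex-injected mouse was therefore far below every PBS-injected mouse, whereas the ranges of the zinc and water groups overlapped under either injection.

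In the test of Dex on plain water the log2 fold change of *Arrdc3* was -3.20 ± 0.20 (SE, n = 3 against 3, adjusted p = 4.5e-53 by DESeq2). Among zinc-drinking mice it was -3.85 ± 0.20 (adjusted p = 1.43e-76). A gene was called at an adjusted p under 0.05 with a log2 fold change beyond 0.8 in either direction. By that rule 9.68% of the genes tested were called on plain water, 4.89% higher and 4.79% lower, and 3 of the 5 members were called, 1 higher and 2 lower. On zinc, in a comparison that shares no mice with the first, the background was also 9.68% and 4 of the 5 members were called. Among the genes called lower whose normalized count averaged 50 or more, *Arrdc3* ranked 11th of 354 by size on plain water and 5th of 383 on zinc. In bulk liver, fewer cells of a type and less RNA per cell cannot be told apart.

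*Arrdc4* (ENSMUSG00000042659, chromosome 7 from 68736995 to 68749241, minus strand) encodes a further adaptor of NEDD4-family ligases. It had 227, 249 and 255 normalized counts in water-PBS and 259, 152 and 214 in zinc-PBS. After Dex the values were 52.8, 71.3 and 58.4 on plain water and 69.5, 70.0 and 66.3 on zinc. As for *Arrdc3*, no Dex-injected mouse reached the lowest PBS-injected mouse. The log2 fold change of *Arrdc4* was -2.0 ± 0.21 on plain water (adjusted p = 1.62e-20 by DESeq2) and -1.60 ± 0.20 on zinc (adjusted p = 1.51e-13). By size it ranked 42nd of 354 and 80th of 383 among the genes called lower.

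*Arrdc2* (ENSMUSG00000002910, chromosome 8 from 70835129 to 70839720, minus strand) is known as a gene that glucocorticoids raise in muscle. It had 95.6, 79.2 and 93.3 normalized counts in water-PBS and 117, 110.1 and 109.5 in zinc-PBS. After Dex it had 402, 471 and 476 on plain water and 418, 484 and 357 on zinc. Every Dex-injected mouse was far above every PBS-injected mouse. The log2 fold change was 2.34 ± 0.16 on plain water (adjusted p = 9.54e-48 by DESeq2) and 1.90 ± 0.15 on zinc (adjusted p = 8.11e-35). Here *Arrdc2* ranked 65th of 530 and 124th of 556 among the genes called higher.

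*Txnip* (ENSMUSG00000038393, chromosome 3 from 96557957 to 96561883, plus strand) was spread widely among the control mice. Its normalized counts were 1559, 1119 and 711 in water-PBS and 746, 776 and 1020 in zinc-PBS. With Dex they were 1042, 1352 and 1188 on plain water and 1755, 1513 and 1356 on zinc. The 3 water-Dex mice lay inside the range of water-PBS, and the 3 zinc-Dex mice lay above all zinc-PBS and all water-Dex mice.

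On plain water the Dex effect on *Txnip* was 0.08 ± 0.22 on the log2 scale (95% interval -0.35 to 0.51, adjusted p = 0.859 by DESeq2), so a change as large as the threshold lies outside this interval. On zinc it was 0.86 ± 0.22 (adjusted p = 0.000794), which was just past the threshold and ranked 506th of 556 genes called higher. Without zinc-PBS replicate 1 it was 0.78 and without zinc-Dex replicate 1 it was 0.76, both under the threshold. Zinc-Dex against water-Dex gave 0.37 ± 0.22 (adjusted p = 0.607). Of the genes tested there, 0.469% were called and none was a member, and 0 members had an unadjusted p under 0.05 or were called by edgeR.

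*Arrdc1* (ENSMUSG00000026972, chromosome 2 from 24925352 to 24935252, minus strand) was the least abundant. It had 11.6, 27.3 and 31.8 normalized counts in water-PBS and 17.2, 29.7 and 23.5 in zinc-PBS. With Dex it had 30.5, 27.7 and 19.8 on plain water and 32.6, 22.2 and 38.4 on zinc. All 4 groups overlapped. At this depth the Dex effect on plain water was 0.14 ± 0.39 on the log2 scale. Its 95% interval, from -0.62 to 0.90, includes a rise as large as the threshold but not a fall of that size.

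**Figure D2:**
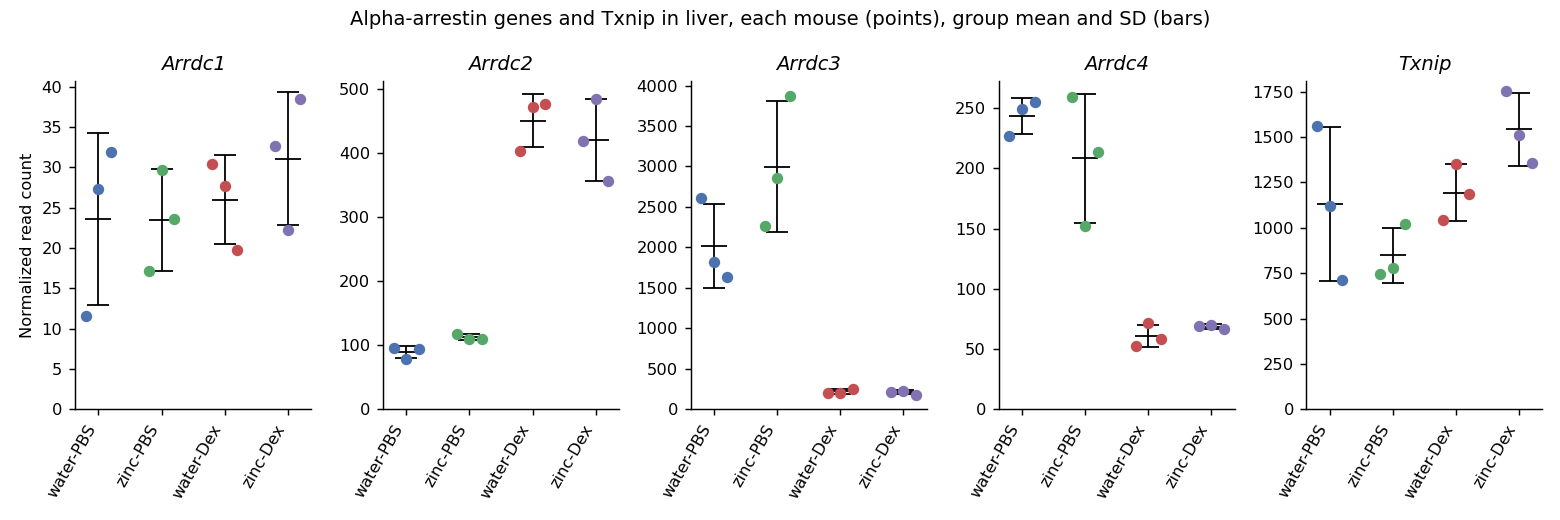
Normalized read count (vertical axis, from 0, 1 scale per gene) of each mouse as a point, with the group mean and SD as bars, for the 4 groups of 3 mice. *Arrdc2* is high and *Arrdc3* and *Arrdc4* are low in all 6 Dex-injected mice, while *Txnip* is spread from 711 to 1559 in the controls.

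The Dex effects on the 2 waters were compared through the interaction term of the same fit. It was -0.65 ± 0.29 for *Arrdc3*, with the larger fall on zinc (unadjusted p = 0.0242 by DESeq2). For *Arrdc2* it was -0.44 ± 0.22 (unadjusted p = 0.0441) and for *Txnip* 0.78 ± 0.31 (unadjusted p = 0.0111). *Arrdc4* gave 0.40 ± 0.29 (unadjusted p = 0.165) and *Arrdc1* 0.27 ± 0.54 (unadjusted p = 0.615). The adjusted p was 1.0 for each, and no member was called by DESeq2 or edgeR, against a background of 0.0191%. Without water-PBS replicate 3, which had the lowest *Txnip* count of its group, the interaction of *Txnip* was 1.03 and was called (adjusted p = 0.00945 by DESeq2). That fit tested 3688 genes for the interaction and the main fit 26185, so their adjusted p-values rest on unlike numbers of genes. The part of this in the call was not tested.

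Zinc drinking without Dex gave no call among the 5 genes, where 0.138% of the genes tested were called. The comparison shares the water-PBS mice with that of Dex on plain water. By DESeq2 2 members had an unadjusted p under 0.05, and edgeR called 0. *Arrdc3* was 0.57 ± 0.20 higher on the log2 scale (unadjusted p = 0.00370, adjusted p = 0.324 by DESeq2), with overlapping groups. *Arrdc2* was 0.33 ± 0.17 higher (adjusted p = 0.865), and each zinc-PBS mouse lay above each water-PBS mouse. *Txnip* was at -0.42 ± 0.22 (adjusted p = 0.881). Between the Dex-injected groups *Arrdc2* was at -0.10 ± 0.14 and *Arrdc3* at -0.08 ± 0.21, neither called.

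Averaged over both waters, the Dex effect was 2.12 ± 0.11 for *Arrdc2*, -3.52 ± 0.14 for *Arrdc3* and -1.80 ± 0.14 for *Arrdc4* on the log2 scale, and these 3 were called against a background of 10.3%. *Txnip* was at 0.47 ± 0.15 (adjusted p = 0.0105 by DESeq2), past the test but under the fold threshold. The average zinc effect over both injections called no member by DESeq2 or edgeR, against a background of 0.333%, and 0 had an unadjusted p under 0.05. Zinc-Dex against water-PBS, which shares its mice with the comparisons above, called *Arrdc2* at 2.23, *Arrdc3* at -3.28 and *Arrdc4* at -1.83. There 1550 of 21401 genes tested were called (7.24%), and with Dex on plain water 1376 of 14221 (9.68%). These shares rest on unlike numbers of genes tested and cannot be set against each other.

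**Figure D3:**
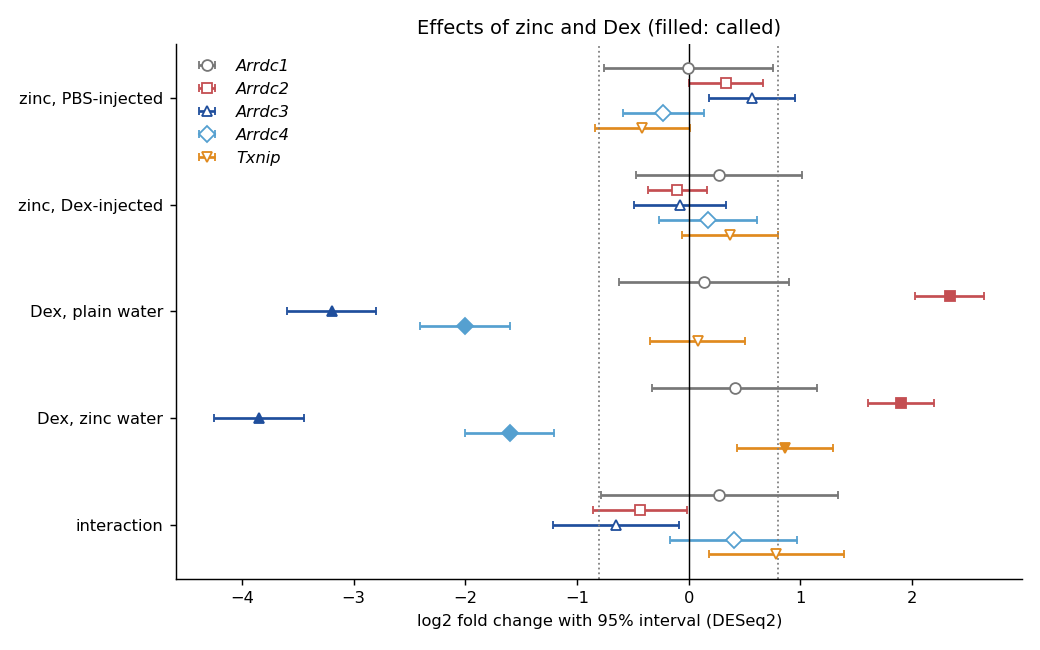
Log2 fold change (horizontal axis) with its 95% interval for each gene in 5 tests, with filled points for called effects and dotted lines at the threshold of 0.8. The Dex effects of *Arrdc2*, *Arrdc3* and *Arrdc4* lie well past the lines on both waters, and the zinc effects and the interactions are open points.

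To set the genes against each other, counts were divided by the merged exon length in kilobases. In water-PBS, *Txnip* was at 362 ± 136 normalized counts per kb (SD, n = 3) and *Arrdc3* at 323 ± 82.5. These neighbours overlapped, with shares of 46.3% and 41.3% of the family's sum. *Arrdc4* followed at 60.3 ± 3.67, then *Arrdc2* at 27.6 ± 2.75 and *Arrdc1* at 9.39 ± 4.24, and none of these overlapped its neighbour. In zinc-PBS, *Arrdc3* came first at 479 ± 130 per kb and *Txnip* second at 271 ± 48.2, without overlap.

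With Dex the order was *Txnip*, *Arrdc2*, *Arrdc3*, *Arrdc4*, *Arrdc1* on both waters, with no overlap between neighbours. *Txnip* made up 65.7% of the family's level per kb after Dex on plain water and 71.9% after Dex on zinc. *Arrdc2* stood at 139 ± 12.8 and 130 ± 19.8 per kb, and *Arrdc3* at 35.1 ± 4.03 and 33.3 ± 3.90. Within single mice, *Arrdc3* was 9.04 to 14.1 times *Arrdc2* per kb in water-PBS and 9.95 to 18.2 times in zinc-PBS. After Dex, *Arrdc2* was instead 3.70 to 4.47 times *Arrdc3* on plain water and 3.71 to 4.14 times on zinc. This ratio needs no scaling between libraries, and the pair changed places in all 6 Dex-injected mice. With the longest transcript as the length, *Arrdc3* came before *Txnip* in water-PBS, and *Arrdc1* came before *Arrdc4* in both Dex groups.

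**Figure D4:**
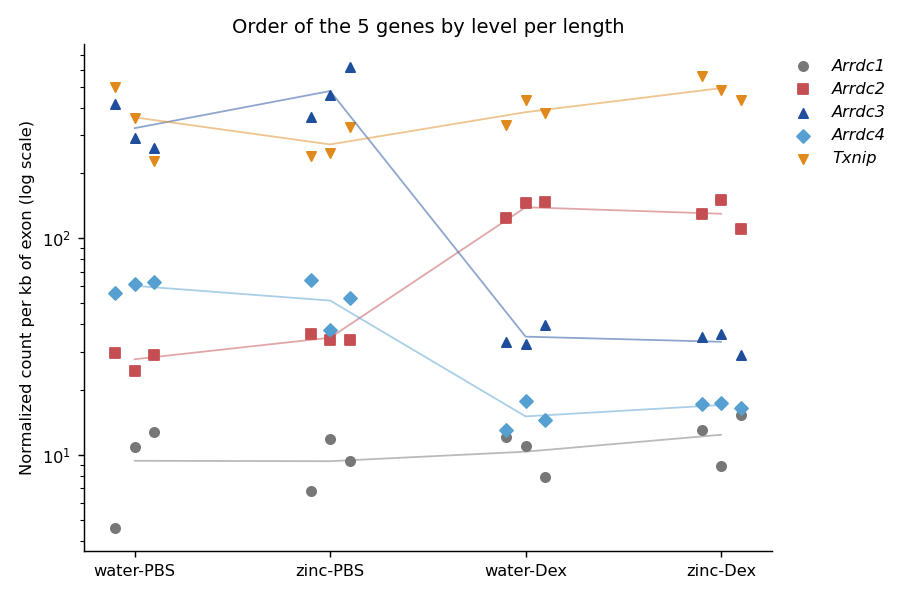
Normalized count per kilobase of merged exon (vertical axis, log scale) of each mouse as a point, with lines through the group means, for the 5 genes in the 4 groups. *Arrdc3* and *Arrdc2* change places between the PBS-injected and the Dex-injected groups, and *Txnip* stays near the top.

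Several values moved alongside these effects. The summed count of 5 hepatocyte markers (*Alb*, *Apoa1*, *Apob*, *Cps1*, *Ttr*), which define the labelled tissue, was 1190748 to 1410121 in the PBS-injected mice and 1542307 to 1701594 in the Dex-injected mice, and none of the 5 was called. *Alb* made up most of this sum and went from 1059940 ± 90166 to 1305427 ± 50201 on plain water. *Apoa1*, *Cps1* and *Ttr* were also higher on average there, while *Apob* stayed at 64218 ± 20891 and 64826 ± 3004. The sum of 4 sinusoidal endothelial markers was 2472 to 2839 in PBS-injected and 1992 to 2287 in Dex-injected mice. Of these only *Kdr*, the VEGF receptor, was called, at -1.14 on plain water and -1.26 on zinc. The 4 markers did not move in 1 direction. On plain water *Kdr* went from 892 ± 80.2 to 405 ± 37.4 normalized counts and *Clec4g* from 625 ± 35.5 to 555 ± 68.3. *Stab2* instead went from 734 ± 61.6 to 768 ± 33.0 and *Pecam1* from 376 ± 38.3 to 395 ± 14.8. Sums of 3 lymphocyte markers were 13.99 to 34.3 in PBS-injected and 2.97 to 14.1 in Dex-injected mice, and *Ms4a1* of B cells was called lower on plain water. Sums of 3 red blood cell markers were 563 to 1215 and 906 to 1696, with *Hba-a1* called at 0.95 on zinc. The defining adipocyte markers were at or near 0 in every group, with a highest sum of 1.09. The part of cell makeup in the changes of the 5 genes was not tested.

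The Dex injection was checked with 7 known GR targets, of which 7 rose on plain water and 6 on zinc. Beside this and the list counts below, 9.68% of all genes tested were called on each water. On plain water 4.89% were higher and 4.79% lower. *Fkbp5*, a co-chaperone of the receptor, went from 923 ± 335 to 8014 ± 39.7 normalized counts on plain water. The kinase gene *Sgk1* went from 285 ± 36.1 to 2001 ± 379, and *Tat*, which breaks down tyrosine, from 9502 ± 2345 to 62751 ± 1264. The phosphatase gene *Dusp1* rose by 2.51 ± 0.39 on plain water and 3.25 ± 0.39 on zinc on the log2 scale. The weakest calls were those of *Per1*, a clock gene, and *Zfp36*, an mRNA decay factor. On plain water *Per1* was at 1.0 and its call was lost without water-PBS replicate 3, at 0.78. On zinc it was at 0.85 and its call was lost without zinc-PBS replicate 3, zinc-Dex replicate 1 or zinc-Dex replicate 3, at 0.62 to 0.94. The call of *Zfp36* on plain water, at 1.16, held in only 5 of 12 fits that left out 1 library, and was lost without water-PBS replicate 2 or 3, any water-Dex mouse, or zinc-Dex replicate 2 or 3, at 0.92 to 1.24. The median log2 fold change of the list was 2.51 on plain water and 2.74 on zinc, against -0.01 over all genes tested in each.

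The factors that read glucose for *Txnip* and *Arrdc4* were measured next. *Mlxip*, which encodes MondoA, rose from 120 ± 8.66 to 293 ± 19.1 normalized counts on plain water (log2 1.29 ± 0.15, adjusted p = 4.78e-16 by DESeq2). On zinc it rose from 128 ± 22.8 to 287 ± 23.7 (log2 1.17 ± 0.15). *Mlxipl*, which encodes ChREBP, was at -0.38 ± 0.13 on plain water (adjusted p = 0.0205) and -0.27 ± 0.13 on zinc (adjusted p = 0.137), under the fold threshold. *Mlx* was at 0.23 ± 0.12 and -0.17 ± 0.11, neither called. Among 10 other genes known as ChREBP targets in liver, 1 rose and 1 fell with Dex on each water. *Rgs16*, a regulator of G protein signalling, rose by 2.07 on plain water and 2.61 on zinc on the log2 scale. *Klf10*, a zinc finger repressor, changed by -1.71 and -1.45. The median of the list was -0.26 on plain water and 0.23 on zinc, against -0.01 for all genes in each. In the interaction 0 of the 10 were called by DESeq2 or edgeR, with 1 at an unadjusted p under 0.05.

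Zinc alone called 1 of these targets, *G6pc*, which encodes the catalytic subunit of glucose-6-phosphatase. It was at 2600 ± 771 normalized counts in water-PBS and 789 ± 233 in zinc-PBS (log2 -1.72 ± 0.34, adjusted p = 0.000486 by DESeq2). Between the Dex-injected groups *Acacb*, the mitochondrial acetyl-CoA carboxylase, was called higher with zinc at 0.82 ± 0.18, a call lost in 4 of 19 alternatives, among them edgeR (adjusted p = 0.0610) and the fits without water-Dex replicate 1 or zinc-Dex replicate 1, at 0.74 and 0.72.

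TXNIP binds thioredoxin, and the genes of the thioredoxin system were taken next. Of 11 genes, 0 were called by DESeq2 or edgeR on plain water, with 3 at an unadjusted p under 0.05. On zinc 1 was called, *Srxn1*, the sulfiredoxin that repairs peroxiredoxins, which went from 429 ± 28.7 to 828 ± 93.8 normalized counts (log2 0.95 ± 0.15). On plain water *Srxn1* was at 0.58 ± 0.15, under the fold threshold. The glutaredoxin gene *Glrx* was at 0.32 ± 0.14 on plain water and 0.56 ± 0.13 on zinc, past the test on zinc (adjusted p = 0.000321 by DESeq2) but under the fold threshold. The most abundant gene, *Prdx1*, was at 0.11 ± 0.05 and 0.10 ± 0.05. The medians were 0.07 and 0.05, beside -0.01 for all genes in each.

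NEDD4-family ligases are the partners through which alpha-arrestins act. Of 9 genes 8 could be tested, since *Hecw1* was at 0 in all libraries, and 2 were called higher on both waters. In each comparison 4 had an unadjusted p under 0.05 by DESeq2. Of all genes tested, 4.89% were called higher on plain water, and 9.68% were called in either direction on zinc. *Nedd4l*, which controls the sodium channel ENaC, went from 717 ± 40.6 to 1377 ± 82.5 normalized counts on plain water and from 663 ± 89.8 to 1374 ± 123 on zinc. *Hecw2* went from 88.2 ± 14.1 to 231 ± 15.3 and from 92.1 ± 24.4 to 212 ± 11.1. *Smurf1*, not called, went the other way, from 178 ± 6.51 to 161 ± 14.7 on plain water. On zinc it went from 210 ± 2.88 to 167 ± 20.0, without overlap. The list medians were 0.14 and 0.09, beside -0.01 for all genes in each. Of the ESCRT genes that sort ubiquitinated cargo, 6 were tested and 0 were called by DESeq2 or edgeR on either water. In each comparison 2 had an unadjusted p under 0.05, with *Stam* at 0.70 ± 0.10 and 0.66 ± 0.10, past the test (adjusted p = 4.71e-10 and 3.13e-09) but under the fold threshold. The most abundant of them, *Pdcd6ip*, was at 0.06 ± 0.08 and 0.08 ± 0.08, and the list medians were 0.07 and 0.16.

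Genes for membrane proteins reported as cargo of the family held 2 called higher and 0 called lower with Dex on each water, of 7 tested on plain water and 8 on zinc. In each comparison 3 had an unadjusted p under 0.05 by DESeq2. *Adrb1*, the beta1-adrenergic receptor, rose by 1.95 ± 0.41 and 2.00 ± 0.39 from low counts. *Slc2a1*, which encodes the glucose transporter GLUT1, went from 108 ± 22.8 to 254 ± 26.5 on plain water and from 82.7 ± 9.74 to 279 ± 15.0 on zinc. The insulin receptor gene *Insr* was at -0.02 ± 0.10 and 0.14 ± 0.10, neither called. *Slc11a2*, also not called, went from 308 ± 41.7 to 298 ± 23.5 normalized counts on plain water. On zinc it went from 262 ± 28.8 to 192 ± 19.6, without overlap. The list medians were 0.46 and 0.12.

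The other genes of the arrestin fold that could be tested did not follow *Arrdc2*, *Arrdc3* or *Arrdc4* in size. Of 8 genes 5 were tested with Dex, and 0 were called by DESeq2 or edgeR on either water, with 3 and 4 at an unadjusted p under 0.05. *Arrdc5*, a further *Arrdc* gene, was too low to be tested. It was at 0 in both PBS-injected groups, at 1.39 ± 1.20 normalized counts in water-Dex and at 2.75 ± 0.95 in zinc-Dex. *Arrb1*, which encodes beta-arrestin 1, was at -0.64 ± 0.13 on plain water and -0.49 ± 0.13 on zinc on the log2 scale (adjusted p = 2.13e-05 and 0.00172), past the test but under the fold threshold. The most abundant of them, the retromer gene *Vps26a*, was at -0.01 ± 0.10 and -0.02 ± 0.10. The medians were -0.28 and -0.29.

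FoxO factors raise a set of liver genes that insulin holds down. Of 11 such genes 5 were called higher with Dex on plain water and 6 on zinc, and 0 were called lower. By edgeR 7 were called on zinc, in either direction. *Irs2*, not called by DESeq2, went from 327 ± 129 normalized counts in zinc-PBS to 135 ± 37.4 in zinc-Dex, without overlap. On plain water *Irs2* went from 287 ± 230 to 207 ± 50.5 and *Sesn3* from 726 ± 35.1 to 549 ± 44.9. *Igfbp1*, a binding protein for insulin-like growth factors, rose by 3.58 ± 0.92 and 4.83 ± 0.92 on the log2 scale. *Pck1*, the cytosolic PEPCK of gluconeogenesis, rose by 1.62 ± 0.44 and 2.36 ± 0.44. The stress gene *Sesn1* rose by 1.46 ± 0.15 and 1.66 ± 0.15. *Bcl6*, a repressor, was called on plain water at 1.90 ± 0.70, a call that did not hold (1.49 to 1.90) when replicate 2 or 3 of water-PBS, replicate 2 or 3 of water-Dex, or replicate 1 of zinc-Dex was left out. *Pdk4*, which holds back pyruvate oxidation, was called on zinc at 2.83 ± 0.83, and was lost without zinc-Dex replicate 2, at 2.47. *Ppargc1a*, the coactivator PGC-1alpha, was called on zinc at 0.84 and was lost without zinc-PBS replicate 2 or zinc-Dex replicate 1, at 0.66 and 0.70. The list medians were 0.89 and 1.43. Several of its genes are also known to be raised through GR.

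**Figure D5:**
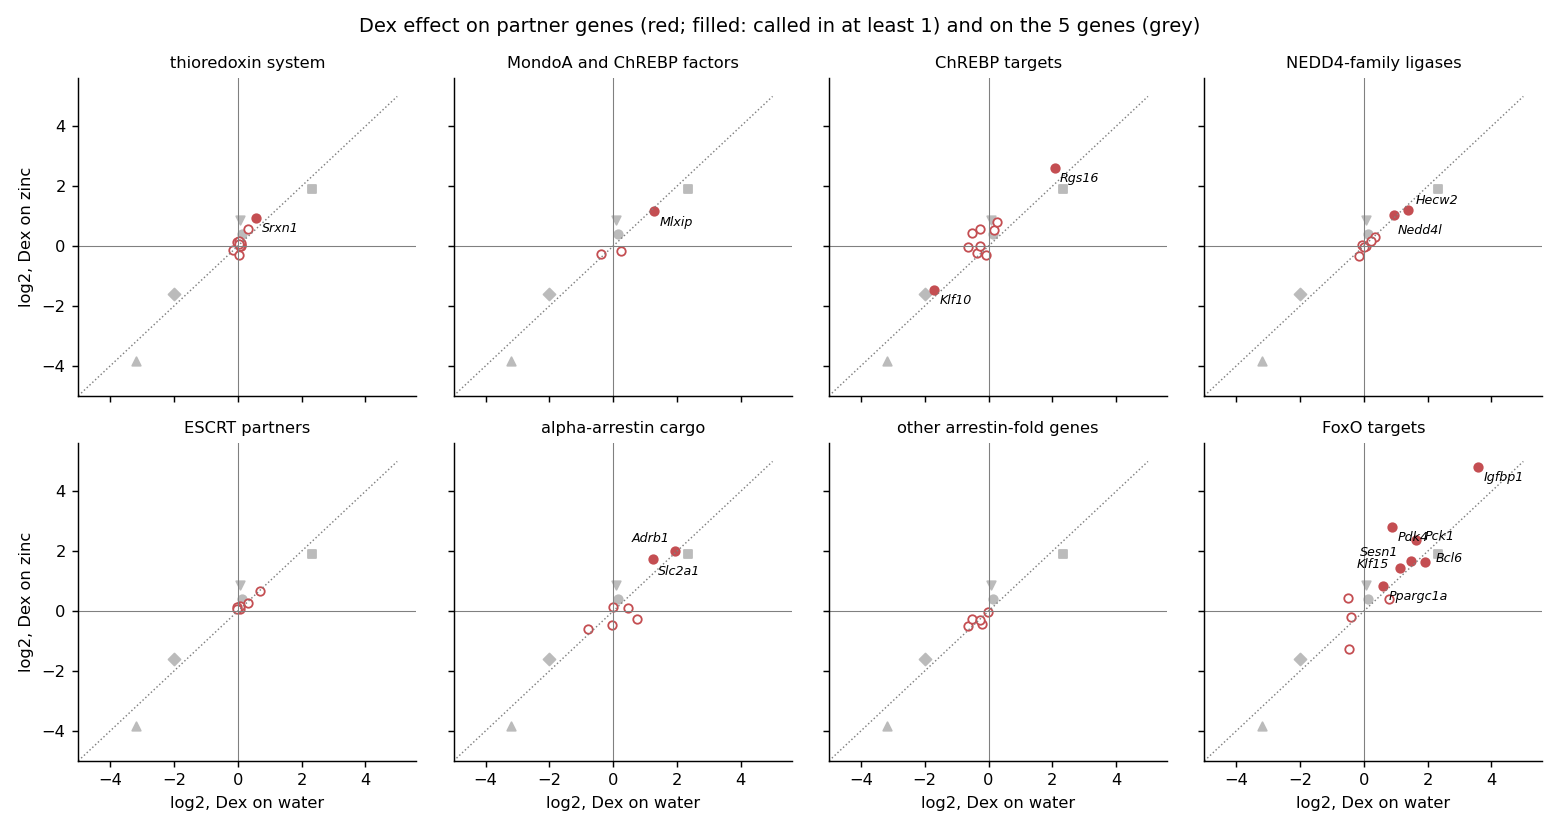
Log2 fold change with Dex on plain water (horizontal axis) and on zinc (vertical axis) for the genes of 8 lists in red, filled where called in at least 1 of the tests, with the 5 family genes in grey in each panel and a dotted line of equality. Most called genes lie near the line, and the thioredoxin and ESCRT panels hold 1 called gene, *Srxn1*.

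The genes whose levels ran most like each member were taken from the 9574 genes whose normalized count averaged 50 or more, by Pearson's r of log2 values over the 12 libraries. This is a description, since the libraries share their treatment. For *Arrdc3* they were *Zfp707*, *Wdr81* and *Dsp*, with r of 0.99 each. *Dsp* encodes desmoplakin of cell junctions. For *Arrdc4* they were *Hes1*, a Notch target and repressor, *Rnf152* and *Tbx3*, with r of 0.99, 0.98 and 0.98. *Hes1* had 295 ± 47.7 normalized counts in water-PBS and 32.2 ± 9.1 in water-Dex, and *Tbx3*, a T-box factor, had 397 ± 66.3 and 42.2 ± 9.07.

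For *Arrdc2* the nearest were *Cab39l*, *Rnf217* and *Fam107a*, each with r of 0.99. After the group means were taken out, *Cab39l* still had an r of 0.92 with *Arrdc2*, while *Fam107a* had 0.06. *Fam107a* went from 1.67 ± 0.517 normalized counts in water-PBS to 802 ± 110 in water-Dex. With the group means taken out, the genes named for *Arrdc3* had r of 0.69, 0.56 and 0.57, and those for *Arrdc4* 0.66, 0.62 and 0.60. The nearest genes of *Txnip* were *Slc11a1*, *Sec61a1* and *Snd1*, with r of 0.92, 0.92 and 0.90, and with 0.91, 0.89 and 0.87 after the group means were taken out. All these genes were picked by r over the same libraries, so the second r is not a separate check. *Sec61a1*, a subunit of the channel into the endoplasmic reticulum, had 1713 ± 497 normalized counts in water-PBS and 2086 ± 118 in zinc-Dex. For *Arrdc1*, which has few counts, *Mrps24*, *Ivd* and *Gpt* came nearest, with r of 0.89, 0.88 and 0.87. These were 0.91, 0.89 and 0.88 after the group means were taken out.

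Some genes overlap the members on the opposite strand. *Gm15441*, antisense to *Txnip* with 606 shared exon bases, had at most 3 reads in a library. *1700023H06Rik*, opposite *Arrdc3* with 0 shared exon bases, had at most 16. With the strand setting of the counting not known, the part of shared bases in the members' counts was not tested.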

How the data were processed

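Liver RNA from 12 mice had been made into stranded TruSeq libraries. The authors mapped single-end reads to mm10 with HISAT2 2.0.4, and the deposited table holds their raw read counts per gene from featureCounts, without multimapping reads and with no normalization. Annotation release and strand setting of the counting are not given in the sources used here, so genes overlapping on opposite strands are uncertain. Symbols were found for 54723 and coordinates for 54809 of 54838 identifiers (GENCODE M21, GRCm38), and 0 columns were left unused.

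Counts were tested with DESeq2 1.42.0 (R 4.3.3) in 1 fit of all 12 libraries with 1 coefficient per group, after the study's methods, which used the same tool at an FDR of 5%. Wald tests were adjusted by Benjamini-Hochberg over all genes tested, and a call needed both an adjusted p under 0.05 and a log2 fold change past 0.8 either way. The script was tested on simulated data. The smallest p an exact permutation of 3 against 3 mice can give is 0.1, so p-values rest on the shared spread, and precision is limited by 9091152 to 12303527 counts per library. The series' design text calls the replicates biological.

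Members and lists were chosen with earlier results of these data known. Named are the 5 members, the 3 genes most like each, and of each list the called genes, at most 4 by size, or the most abundant where none was called. *Insr*, *Slc11a2*, *Smurf1*, *Mlxipl*, *Mlx*, *Stam*, *Glrx*, *Ppargc1a*, *Arrb1*, *Irs2*, *Sesn3*, *Arrdc5* and marker genes were named after their values were seen. *Hgs* matched more than 1 identifier and was left out, and *Dscr3* is listed as *Vps26c*. Results of 2 other listed genes are not reported here, and their lists are counted without them. Alternatives were edgeR 4.0.16 (quasi-likelihood, TMM), TMM factors in DESeq2, a filter for 10 or more counts in 3 or more libraries, a replicate term, no independent filtering, no Cook's distance filter, no fold threshold, only the 6 libraries compared, another gene length, scaling by library total, and leaving out each library. Promoter windows came from the RefSeq table of GRCm38.p6.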

Additional observations from a re-analysis of the deposited data

How the results depend on the processing

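The Dex calls of *Arrdc2*, *Arrdc3* and *Arrdc4* held on both waters in all 20 alternatives, with log2 fold changes without single libraries of 2.25 to 2.41, -3.33 to -2.97 and -2.13 to -1.91 on plain water, and of 1.78 to 2.01, -4.01 to -3.62 and -1.79 to -1.41 on zinc. The call of *Txnip* with Dex on zinc was lost without zinc-PBS replicate 1 or zinc-Dex replicate 1, with values without single libraries from 0.76 to 1.02. Its interaction ran from 0.48 to 1.03 and was called without water-PBS replicate 3, in a fit that tested 3688 genes instead of 26185. The average Dex effect of *Txnip* was called at 0.47 when no fold change was asked for. For zinc alone no alternative called *Arrdc3* or *Txnip*, but some came near. *Arrdc3* ran from 0.34 to 0.79, and its lowest adjusted p over the DESeq2 and edgeR fits was 0.0102. *Txnip* ran from -0.66 to -0.11, and its lowest adjusted p over the same fits was 0.0343. Values near 0 changed sign. Without single libraries, *Arrdc1* ran from -0.33 to 0.26 for zinc alone, from -0.19 to 0.40 for Dex on plain water and from -0.030 to 0.26 for the average zinc effect. *Txnip* ran from -0.16 to 0.38 for Dex on plain water and from -0.15 to 0.13 for the average zinc effect, and *Arrdc4* from -0.12 to 0.066 for the latter. For zinc-Dex against water-Dex, *Arrdc2* ran from -0.22 to 0.0056 and *Arrdc3* from -0.14 to 0.018. The cause was not tested. The number of genes called in the whole table ranged from 9 to 38 for zinc alone (main 17) and from 21 to 101 for zinc-Dex against water-Dex (main 60), so the background beside the zinc results is loose. For the interaction it ranged from 3 to 23 (main 5), and for the average zinc effect from 15 to 64 (main 41).

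Mice with the same replicate number showed no shared deviation. Deviations from the group means correlated from -0.20 to 0.19 over 18 same-numbered pairs and from -0.24 to 0.28 over 36 others. Whether same-numbered mice were matched in another way cannot be told from this. With the replicate block *Arrdc1* was at 0.013 for zinc alone instead of -0.0057, no call among the 5 genes changed, those of *Per1* on both waters (1.05 and 0.89) and *Acacb* (0.80) were lost, and the whole table had 1256 calls for Dex on plain water instead of 1376. Depth limits *Arrdc1* most.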
